A study of Mus musculus with 2 samples.

Results

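Genes of the growth hormone and insulin-like growth factor (IGF) axis were followed in a droplet-based single-cell RNA-Seq experiment on mouse liver. The set held 8 of the 32285 genes in the tables, chosen by symbol: the growth hormone receptor Ghr, the transcription factor gene Stat5b, the feedback inhibitor genes Socs2 and Cish, the hormone gene Igf1, its carrier gene Igfals, and the binding protein genes Igfbp2 and Igfbp4. All 8 were found once in each table. There were 2 libraries, each made from a pool of 3 livers. The WT library came from wild-type littermates. The HKO library came from littermates in which both copies of the miR-33 gene were flanked by loxP sites and removed by Cre recombinase from the albumin promoter, which is active in hepatocytes. Whether the deletion reached other cells, such as cholangiocytes, was not measured here. Mice of both genotypes were male and were fed CD-HFD (a high-fat diet without choline that brings on fatty liver and steatohepatitis) for 6 months from 8 weeks of age, and were fasted for 6 hours before collection. Hepatocytes and sorted nonparenchymal cells were isolated apart and mixed 1 to 1 before loading. With 1 library per genotype no test between genotypes was possible and no p-value was computed, and the differences are those of 2 libraries. Intervals are exact 95% intervals that cover counting error only, and not the spread between mice.

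Growth hormone from the pituitary binds GHR on hepatocytes, and the kinase JAK2 that is bound to the receptor then activates STAT5B, which enters the nucleus and switches on target genes. The SOCS family members SOCS2 and CISH are made in response and damp the signal at the receptor. IGF-1 is made in response as well, leaves the liver for the blood in a complex with a binding protein and the acid-labile subunit encoded by Igfals, and acts on IGF1R in other organs. Mouse hepatocytes are known to have little IGF1R themselves. Fasting and fatty liver are both known to alter the liver's answer to growth hormone, and binding proteins such as IGFBP1 and IGFBP2 are also under the control of insulin. The level of miR-33 itself was not analysed here, because mature microRNAs have no poly(A) tail and this chemistry starts from poly(A). Srebf2, whose intron holds miR-33, was at 24.8 CPM in WT and 19.5 in HKO hepatocyte-like barcodes, where CPM is a gene's UMIs (unique molecular identifiers, that is, counted RNA molecules) divided by all UMIs of the same barcodes and multiplied by 1000000.

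The WT table held 130451427 UMIs in 30078 barcodes, and 52563185 UMIs in 20000 barcodes were in that of HKO. Most barcodes lay near 1 shallow depth, the commonest being 2570 UMIs in WT and 813 in HKO. Barcodes were clustered, and the clusters were named from marker genes. Those under 2 times that depth in clusters not named for another cell type were taken as free RNA, that is, RNA from broken cells in droplets without a cell, on depth and cluster alone, and whether they lacked a cell was not tested. Barcodes of these clusters with at least 2 times that depth were called hepatocyte-like, whether or not they held UMIs of other cells' markers, which gave 1826 WT barcodes (median 20633 UMIs) and 3519 HKO barcodes (median 4270 UMIs). The 10 hepatocyte markers together made up 96279 CPM in WT and 79952 in HKO, with none of the 10 at 0. Free RNA carried the same genes at 93687 and 84898 CPM, so the presence of hepatocyte RNA in a barcode did not by itself mark a hepatocyte. Markers of T and NK cells in the hepatocyte-like barcodes summed to 23.3 CPM in WT and 21.6 in HKO over 11 markers, those of macrophages to 25.3 and 25.0, those of endothelial cells to 17.7 and 14.5, and those of cholangiocytes to 206 and 174, with Cftr and Krt7 among the latter at 0 in both libraries. Those of B and plasma cells (4.63 and 7.23) and of stellate cells (10.8 and 11.1) were higher in HKO, and those of monocytes and dendritic cells were lower, at 11.8 and 3.15. The part of such RNA in the differences below was not tested. Barcode sequences of the WT library were not analysed here, so barcodes shared by the libraries could not be counted, and it was not settled here whether both libraries were made with the kit version that the labels name for them. A difference in kit and a difference in genotype cannot be told apart in any ratio between the libraries.

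Between the libraries, Socs2, Cish and Igf1 were higher in HKO hepatocyte-like barcodes, while the binding protein gene Igfbp2 was lower and the receptor gene differed little. A ratio of HKO to WT of at least 1.5, or at most its inverse, was used as the mark of size. Of the 8 genes, 6 reached a mean of 10 CPM, and of these 0 were at least 1.5-fold higher and 1, Igfbp2, was at least 1.5-fold lower, against 2.35% and 4.28% of the 7074 genes at that level. The median log2 ratio of the 6 genes was -0.01, against -0.02 for the 7074 genes. Socs2 and Cish were below that level, at means of 6.66 and 5.23 CPM. With a minimum of 1 CPM all 8 genes were counted, 2 were higher and 1 was lower, against 5.11% and 5.75% of 11488 genes. Among the 4414 genes with a mean of 1 to 10 CPM, 2.61% were at least 2-fold higher in HKO, and both Socs2 and Cish were among them.

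**Figure D1:**
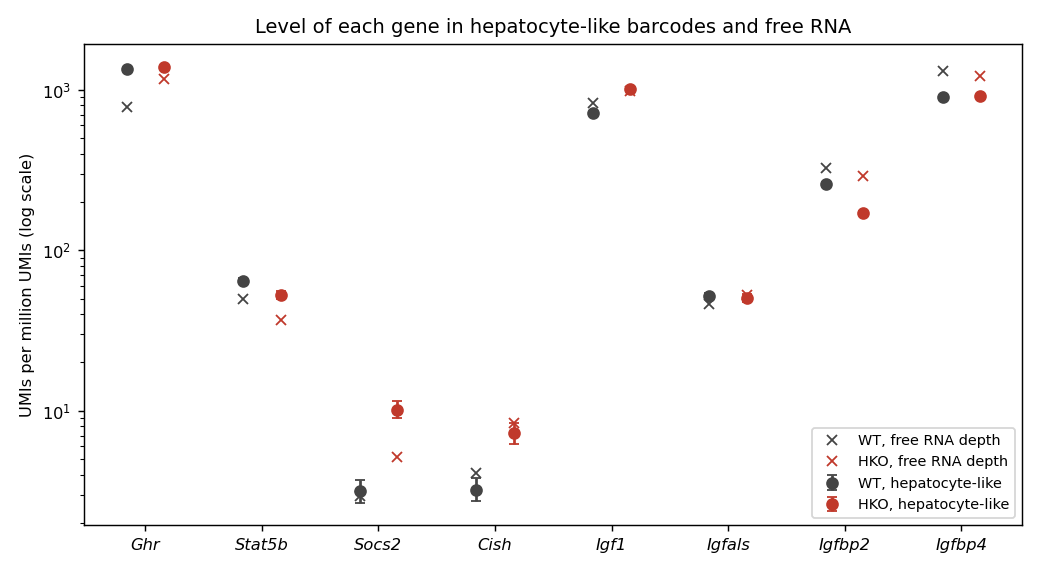
CPM (log axis) of each of the 8 genes in hepatocyte-like barcodes (circles, with exact 95% Poisson intervals) and in barcodes of free RNA depth (crosses), WT in gray and HKO in red, 1 library each. Socs2 and Cish sat at 3.15 and 3.23 in WT against 10.2 and 7.23 in HKO, and for Cish the crosses lay above the circles in both libraries.

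Ghr, the receptor gene (chr15:3317760-3583492, minus strand, GRCm38, protein coding), was at 1342 CPM (1332 to 1353) in WT and 1395 (1380 to 1409) in HKO. The ratio was 1.04 (1.03 to 1.05), so the libraries lay close together, with 63562 and 34924 UMIs behind the values. Free RNA held less of it, 777 CPM in WT and 1162 in HKO, which left hepatocyte-like barcodes at 1.73 and 1.20 times the free RNA level. The near equality was not kept within subsets of barcodes. Among barcodes of 5000 to 10000 UMIs the ratio was 1.73 (1015 in WT and 1758 in HKO), among those of 10000 to 20000 it was 0.84, and among those of 20000 to 40000 it was 0.86. The first of these ranges began at the limit to free RNA in WT (5141 UMIs), while that limit was 1626 UMIs in HKO. The part of free RNA in the ratios of this range, for Ghr and the genes below, was not tested.

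Ghr varied between barcodes more than any of the other members. With each barcode thinned to 5000 UMIs, the number of Ghr UMIs ran from 0 to 73 in both libraries, with a median of 5 in WT and 4 in HKO, and the variance was 9.27 and 11.9 times the mean. The next highest of these values was 2.02, for Igf1 in HKO. Ghr UMIs rose with the level of Malat1 and Neat1, RNAs that stay in the nucleus: across barcodes of at least 5000 UMIs, Pearson's r was 0.71 in WT (1826 barcodes) and 0.72 in HKO (1581 barcodes), where the points are barcodes of 1 library each, all thinned to 5000 UMIs. Stat5b followed with r of 0.33 and 0.35, Igfbp4 went the other way with -0.26 and -0.24, and the other 5 genes lay between -0.07 and 0.04. Introns make up 96.6% of the Ghr gene, 92.1% of Stat5b and 66.4% of Igfbp4, but also 93.4% of Igfbp2 and 87.4% of Igf1, which had r near 0. Whether UMIs came from introns was not recorded in the tables.

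Hepatocyte-like barcodes of at least 5000 UMIs were therefore also split into 3 parts by Malat1 and Neat1, with the same limits in both libraries. Ghr was at 489 CPM in WT and 513 in HKO in the lowest part, at 833 and 1091 in the middle part, and at 2568 and 3381 in the highest part. Within parts the HKO to WT ratio was thus 1.05, 1.31 and 1.32, against 1.11 for all of these barcodes. The HKO library had fewer nuclear-rich barcodes, with a median of 1443 CPM from Malat1 and Neat1 against 2767 in WT. The part of nuclear RNA in the difference was not tested beyond this split.

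**Figure D2:**
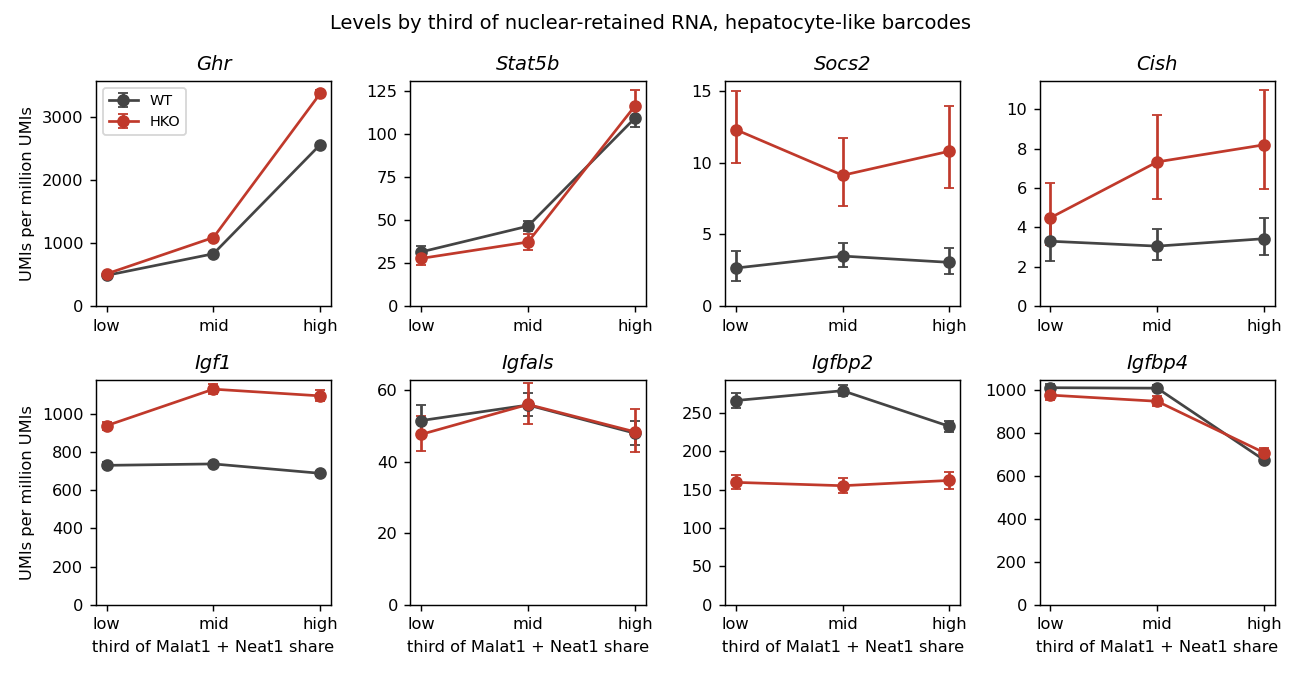
CPM of each gene (y axes from 0, with exact 95% Poisson intervals) in hepatocyte-like barcodes of at least 5000 UMIs, split into 3 parts of rising Malat1 and Neat1 share with common limits, WT in gray and HKO in red. Ghr rose from 489 to 2568 in WT and from 513 to 3381 in HKO, while Igf1 and Igfbp2 kept their order between the libraries in all 3 parts.

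Stat5b, the transcription factor gene downstream of the receptor (chr11:100780731-100850724, minus strand), was at 64.4 CPM (62.2 to 66.8) in WT and 52.5 (49.7 to 55.4) in HKO, which gave a ratio of 0.81 (0.76 to 0.87). It was lower in HKO, by less than 1.5-fold, and the direction was reversed at 5000 to 10000 UMIs, where the ratio was 1.28 (1.06 to 1.55) against 0.67 and 0.66 in the next 2 depth ranges. In the part with the most nuclear RNA it was 1.06 (0.97 to 1.17). Its neighbor Stat5a encodes a near relative with which reads of similar exons could be confused, and it was at 13.7 and 10.3 CPM. Jak2, the kinase gene, was at 14.4 and 13.7 with a ratio of 0.95 (0.83 to 1.08), and Prlr, the prolactin receptor gene, was at 174 and 204.

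Socs2, which encodes an inhibitor of growth hormone signaling (chr10:95385362-95417180, minus strand), had the largest ratio of the 8 genes. There were 149 UMIs in WT, 3.15 CPM (2.66 to 3.69), and 255 in HKO, 10.2 CPM (8.97 to 11.5), a ratio of 3.24 (2.63 to 3.99). The intervals of the libraries did not overlap, and 0.362% of the genes with a mean of 1 to 10 CPM had a ratio as high. The UMIs were spread over many barcodes, with at most 3 in a WT barcode and 5 in an HKO barcode. After thinning to 5000 UMIs, 36 of 1826 WT barcodes (1.97%, exact binomial interval 1.38 to 2.72) and 75 of 1581 HKO barcodes (4.74%, 3.75 to 5.91) had a Socs2 UMI. Without thinning the shares were 7.28% and 11.4% at median depths of 20633 and 10685 UMIs. In T and NK barcodes of the same depth limit, 5 of 99 in WT and 3 of 25 in HKO had a Socs2 UMI after thinning, so detection alone did not set hepatocytes apart. Free RNA held 2.93 CPM in WT and 5.15 in HKO, so that hepatocyte-like barcodes were at 1.07 times the free RNA level in WT and 1.98 times in HKO.

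Socs2 was higher in HKO in each subset of hepatocyte-like barcodes examined. From 10000 to 20000 UMIs the level was 3.34 CPM in WT and 11 in HKO, and from 20000 to 40000 it was 3.67 and 12.3. At 5000 to 10000 UMIs there were 3 UMIs in WT and 48 in HKO, for a ratio of 9.04 with a wide interval of 2.91 to 45.4. Across the 3 parts by nuclear RNA the ratio ran from 2.61 to 4.63. Cholangiocyte-containing barcodes had much more Socs2 than hepatocyte-like ones (described with the cell classes). The 8 cholangiocyte markers summed to 206 CPM in WT and 174 in HKO hepatocyte-like barcodes, with 2 of the 8 at 0 in both, and the part of such RNA in the Socs2 difference was not tested.

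A match to the miR-33 seed was looked for in the members, because a microRNA binds its targets mainly through bases 2 to 8. The mature sequence (chr15:82198127-82198147, plus strand, GRCm38.p6, from RefSeq, with the seed in capitals) and the only match to it in the longest annotated 3′ UTR of any of the 8 genes, in Socs2 at chr10:95411784-95411790 (GRCm38, minus strand, from base 863 of a 3′ UTR of 1163 bases, GENCODE M21, with the match in capitals), are shown to let the pairing be read.
miR-33-5p: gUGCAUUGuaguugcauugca
Socs2 site: aaaacagaaacCAATGCAgacagagacat
The 7-base match CAATGCA was not followed by the A that gives the 8-base form. It was found in 7.11% of the longest 3′ UTRs of 21005 genes, which is the share to read the 1 match among 8 genes against. The 517 measured genes with a match had a median log2 ratio of -0.02 and the others -0.03. A match in letters is a description and not evidence of binding.

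Cish, which encodes the other inhibitor (chr9:107296026-107302784, plus strand), was at 3.23 CPM (2.74 to 3.79; 153 UMIs) in WT and 7.23 (6.21 to 8.36; 181 UMIs) in HKO, which gave a ratio of 2.24 (1.79 to 2.79). Here too the intervals did not overlap. Free RNA held as much or more of it, 4.07 CPM in WT and 8.38 in HKO, so a source of Cish within hepatocytes could not be told apart from free RNA at these counts. Free RNA itself differed between the libraries in the same direction. After thinning to 5000 UMIs, 1.15% (0.71 to 1.75) of WT and 2.85% (2.08 to 3.79) of HKO barcodes had a Cish UMI, against 15 of 99 and 3 of 25 T and NK barcodes. The ratio was less steady than that of Socs2, at 3.86 for 5000 to 10000 UMIs, 1.33 (0.81 to 2.22) for 10000 to 20000 and 2.59 for 20000 to 40000, and at 1.36 (0.83 to 2.23) in the part with the least nuclear RNA. Above 40000 UMIs, where HKO had 6 barcodes and 1 Cish UMI, it was 0.92 (0.02 to 5.29).

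Promoter windows were searched for TTCNNNGAA, the core of the sequence bound by STAT5 dimers, which reads the same on both strands. RefSeq windows (GRCm38.p6, from 250 bases before to 50 bases after a transcript start) were found for 7 of the 8 genes (all but Socs2, which was not searched), 12 windows in all, and 3 windows of 2 genes, Cish and Igfals, held the motif. Of 32851 windows of all genes, 8.3% did. The Cish window chr9:107296409-107296708 (plus strand) held 2 copies, the first at the annotated start (chr9:107296659-107296667) and the second 11 bases further (chr9:107296670-107296678), and it is shown with the copies in capitals for their spacing.
Cish promoter: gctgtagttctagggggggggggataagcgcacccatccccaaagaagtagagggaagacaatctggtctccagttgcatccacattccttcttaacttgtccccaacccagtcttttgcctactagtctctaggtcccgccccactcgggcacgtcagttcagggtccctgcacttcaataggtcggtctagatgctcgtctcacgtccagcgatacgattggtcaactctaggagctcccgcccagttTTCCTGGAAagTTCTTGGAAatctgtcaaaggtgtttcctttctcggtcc
No match in a window says only that these letters were not in those bases, and binding was not measured.

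Igf1, the hormone gene (chr10:87858265-87937042, plus strand), was at 719 CPM (712 to 727; 34064 UMIs) in WT and 1013 (1000 to 1025; 25366 UMIs) in HKO. The ratio of 1.41 (1.39 to 1.43) was short of 1.5, and 3.89% of the 7074 measured genes had a ratio as high or higher. After thinning, a barcode had a median of 3 Igf1 UMIs in WT and 5 in HKO, and 94.4% and 95.3% of barcodes had at least 1. With nearly all barcodes positive in both libraries, the share with a UMI could show little difference. It was seen at every depth with enough barcodes, with ratios of 1.26, 1.46 and 1.57 from 5000 UMIs upward, and in each part by nuclear RNA (1.28, 1.53 and 1.59). Free RNA differed less, with 828 CPM in WT and 987 in HKO. In WT the hepatocyte-like barcodes were thus below the free RNA level, at 0.87 times, and in HKO at 1.03 times.

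Igfals, which encodes the acid-labile subunit (chr17:24865997-24882010, plus strand), was at 52.2 CPM (50.2 to 54.3) in WT and 50.4 (47.6 to 53.3) in HKO. The ratio of 0.97 had an interval of 0.90 to 1.03 that included 1, so a difference was not detectable at 2471 and 1262 UMIs. A STAT5-type motif stood in 2 of its 3 windows, 58 bases (chr17:24878173-24878181) and 236 bases (chr17:24877608-24877616) before a start, and these are shown with the motif in capitals to set beside Cish.
Igfals promoter with the nearer motif (chr17:24877981-24878280, plus strand): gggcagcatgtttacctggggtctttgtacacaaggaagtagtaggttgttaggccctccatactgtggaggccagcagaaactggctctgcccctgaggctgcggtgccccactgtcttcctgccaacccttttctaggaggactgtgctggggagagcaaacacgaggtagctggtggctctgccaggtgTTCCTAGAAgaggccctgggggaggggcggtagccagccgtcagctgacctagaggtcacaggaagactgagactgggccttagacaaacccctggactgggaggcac
Igfals promoter with the farther motif (chr17:24877594-24877893, plus strand): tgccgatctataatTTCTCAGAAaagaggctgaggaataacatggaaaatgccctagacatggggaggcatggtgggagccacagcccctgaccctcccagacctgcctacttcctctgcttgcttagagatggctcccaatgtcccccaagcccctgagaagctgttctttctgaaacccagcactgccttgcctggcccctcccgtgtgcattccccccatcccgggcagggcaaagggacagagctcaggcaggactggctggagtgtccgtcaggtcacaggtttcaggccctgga
The pooled Igfals ratio joined opposite differences along the zone score described later, with 1.16 (1.04 to 1.30) at the periportal end, 0.87 (0.76 to 0.99) in the middle and 0.83 (0.72 to 0.96) at the pericentral end.

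Igfbp2, a binding protein gene that insulin is known to lower (chr1:72824503-72852474, plus strand), was at 261 CPM (256 to 265; 12337 UMIs) in WT and 170 (165 to 176; 4269 UMIs) in HKO. The ratio was 0.65 (0.63 to 0.68), just past the limit, and 3.85% of the measured genes had a ratio as low. Free RNA held more of it than the hepatocyte-like barcodes and differed less, with 325 and 290 CPM. After thinning, 63.3% of WT and 47.6% of HKO barcodes had an Igfbp2 UMI, with median depths as above, and 48 of 99 and 5 of 25 T and NK barcodes did. Ratios of 0.60, 0.53 and 0.57 were found for 5000 to 10000, 10000 to 20000 and 20000 to 40000 UMIs, all lower than the pooled one. The ratio no longer passed the limit with no depth minimum (0.69), with barcodes weighted equally (0.72), when thinned to 1000 UMIs (0.70) and in the part of barcodes with the most nuclear RNA (0.70). Above 40000 UMIs, where HKO had 6 barcodes, the ratio was 1.09 (0.87 to 1.34).

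Igfbp4, the binding protein gene with the most UMIs here (chr11:99041244-99054392, plus strand), was at 895 CPM (887 to 904) in WT and 916 (904 to 928) in HKO, which gave a ratio of 1.02 (1.01 to 1.04). The direction was not steady, with 0.87 for 5000 to 10000 UMIs and 1.15 for 10000 to 20000. Free RNA held more of it, 1314 and 1211 CPM, and the hepatocyte-like barcodes were at 0.68 and 0.76 times that level. Igfbp1, another binding protein gene under insulin control, was at 104 (WT) and 65.9 (HKO) CPM with a ratio of 0.63 (0.60 to 0.67), which put it lower in HKO like Igfbp2. That ratio was 0.48 with barcodes weighted equally and 0.995 in the part with the most nuclear RNA. Unlike Igfbp2, Igfbp1 was higher in HKO at 20000 to 40000 UMIs (1.24, 1.13 to 1.35), and its ratio was 0.70 over all barcodes of at least 5000 UMIs. Igfbp3 and Igfbp7 were at 0.38 and 2.30 CPM in WT and 0.64 and 1.80 in HKO, and Igf1r at 0.44 in both, all low in hepatocyte-like barcodes.

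**Figure D3:**
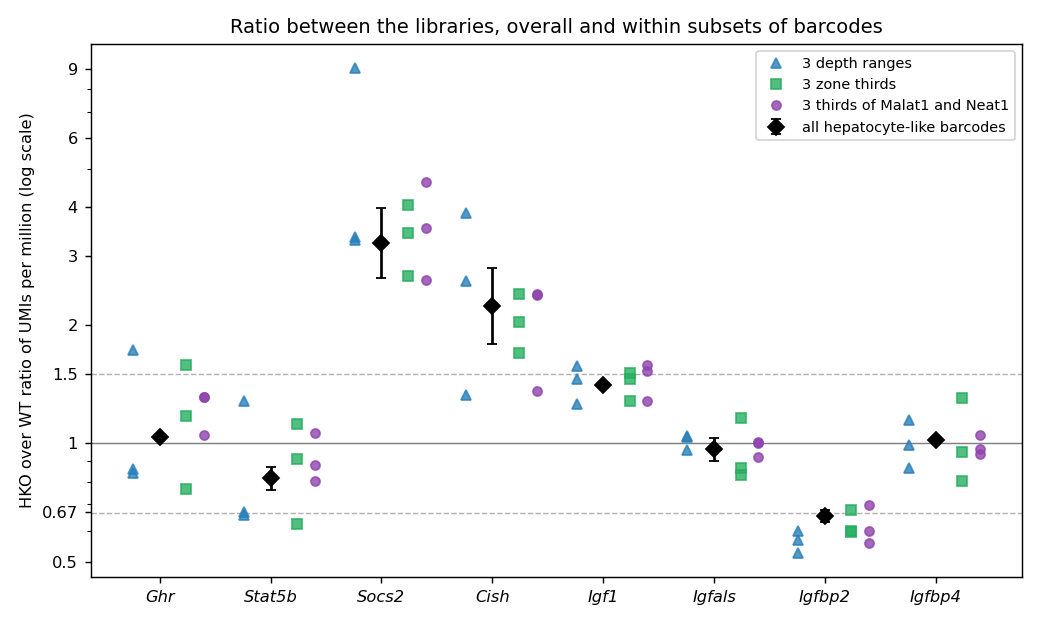
HKO to WT ratio of CPM (log axis) for each gene in all hepatocyte-like barcodes (black diamonds, exact 95% intervals), in 3 depth ranges from 5000 to 40000 UMIs (triangles), in 3 parts of the zone score (squares) and in 3 parts by Malat1 and Neat1 (purple circles), with dashed lines at 1.5-fold. Socs2, Cish and Igf1 lay above 1 and Igfbp2 below 1 in all subsets drawn, while Ghr, Stat5b, Igfals and Igfbp4 fell on both sides of 1.

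Other genes of the pathway were taken from 7 lists with 64 genes, of which 32 reached a mean of 10 CPM. Of these 32, 1 was at least 1.5-fold higher in HKO and 4 were at least 1.5-fold lower, against 2.35% and 4.28% of all 7074 genes at that level, and the median log2 ratio was -0.02, as for all genes. In the lists of receptors and kinases (4 measured) and of signal transducers (9 measured) no gene passed the limit in either direction, with Stat3 at 128 and 132 CPM and Insr at 135 and 147. Of 7 measured negative regulators 1 was lower. This was Bcl6, which encodes a repressor that competes with STAT5 at its sites and whose gene growth hormone is known to lower, at 67.5 CPM in WT and 35.9 in HKO, with a ratio of 0.53 (0.49 to 0.57) that stayed between 0.57 and 0.61 in the 3 parts by nuclear RNA. Socs3, an inhibitor gene of the same family as Socs2 that answers mainly to interleukin-6, was at 15.9 and 13.0 with a ratio of 0.81 (0.71 to 0.93), so the higher level of Socs2 and Cish was not shared by it. Of the protease list only Adam9 was measured, lower at 34.1 and 22.4 CPM, and of the list of other IGF binding proteins Igfbp1 was lower and Igf2bp2, which encodes an RNA-binding protein, did not pass the limit at 14.9 and 10.9.

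Genes that differ between male and female mouse liver through the pattern of growth hormone release gave no common direction, and their counts are to be read against the same 2.35% higher and 4.28% lower of all genes. Of 7 measured male-biased genes 1 was lower, Elovl3, a fatty acid elongase gene at 114 CPM in WT and 41.9 in HKO (ratio 0.37, 0.34 to 0.39), and 4 of the 7 had a ratio above 1. Cyp2d9 and Cyp7b1, which encode cytochrome P450 enzymes, differed little with ratios of 0.95 and 1.02. Of 2 measured female-biased genes, the steroid enzyme gene Cyp17a1 was higher, at 8.15 and 14.5 CPM (1.77, 1.53 to 2.05), and Cyp2b9 was at 101 and 94.6. Genes below 10 CPM were left out of these counts.

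Hepatocytes differ by their place between the portal vein, where blood enters the lobule, and the central vein, where it leaves. Barcodes of at least 5000 UMIs (1826 WT and 1581 HKO) were ranked per library by a zone score and divided into 3 equal parts. The score used 12 periportal genes, 11 pericentral genes with a mean of at least 10 CPM, and the pericentral gene Rhbg below that level. All 5 measured pericentral genes that were held out of the score were higher at the pericentral end in both libraries. All 7 held-out periportal genes were lower there, which put the parts in order. The held-out genes were graded more steeply in HKO, with median pericentral to periportal ratios of 2.83 in WT and 4.19 in HKO for the pericentral ones. For the periportal ones the medians were 0.54 and 0.37. Steeper gradients of single genes in HKO are to be read beside these values. About 20.3% of WT and 21.9% of HKO barcodes lay within 0.1 SD of the score from a limit between parts, so the parts are ranges of a score and not cell types. The middle part was the shallowest, with a median of 17096 UMIs in WT and 9019 in HKO, against 21758 and 12850 at the periportal end.

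Igf1 was graded the same way in both libraries. In WT it fell from 912 CPM at the periportal end through 684 to 564 at the pericentral end, and in HKO from 1331 through 1038 to 723. The pericentral to periportal ratio was 0.62 (0.60 to 0.63) in WT and 0.54 (0.52 to 0.56) in HKO, and Igf1 was the only member past 1.5-fold in both, against 1.43% of 7054 genes that were higher at the periportal end in both and 4% that were higher at the pericentral end in both. Intervals of neighboring parts did not overlap in either library. The HKO level was above the WT level in each part, by 1.46-, 1.52- and 1.28-fold from the periportal to the pericentral end. With barcodes thinned to 5000 UMIs the WT ratio was 0.69, short of the limit.

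Igfals went in the same direction and passed the limit in HKO, with 62.1, 49.3 and 38.7 CPM from the periportal to the pericentral end (ratio 0.62, 0.53 to 0.73), but not in WT, with 53.4, 56.8 and 46.6 (0.87, 0.79 to 0.96). The HKO ratio missed the limit with the score as a share of UMIs (0.71) and with all hepatocyte-like barcodes (0.67), and the WT ratio was 1.02 when thinned to 5000 UMIs. In single libraries, 3.06% of genes in WT and 2.95% in HKO were at least 1.5-fold higher at the periportal end, and 5.44% and 13.9% at the pericentral end. Socs2 went the other way, toward the central vein. It was at 2.84, 2.54 and 4.03 CPM in WT, where the intervals overlapped, and at 7.60, 8.73 and 16.4 in HKO, where the pericentral interval (13.4 to 19.8) lay above the others. The Socs2 ratio was 1.42 (0.96 to 2.13) in WT and 2.16 (1.55 to 3.03) in HKO, at counts below the level of the counted genes. Cish was at 2.84, 4.43 and 2.48 CPM in WT, where the middle part (3.44 to 5.61) lay above the pericentral one (1.77 to 3.38), and at 6.80, 7.53 and 5.05 in HKO, where all intervals overlapped.

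The remaining members had no gradient that was shared by both libraries, apart from Igfbp2. Ghr was at 1673, 1148 and 1203 CPM from the periportal to the pericentral end in WT and at 1279, 1823 and 1415 in HKO, so the part with the highest level was the periportal one in WT and the middle one in HKO. These were also the parts with the most Malat1 and Neat1, 8716 CPM in WT and 9930 in HKO, and the part of nuclear RNA in this order was not tested. Stat5b followed Ghr in this order, with 72.2, 57.0 and 63.9 in WT and 44.9, 64.0 and 58.5 in HKO. Igfbp4 had the reverse order in both libraries, with 734, 1040 and 916 in WT and 959, 837 and 870 in HKO. Igfbp2 was highest in the middle part of both libraries, at 208, 337 and 239 in WT and 124, 202 and 161 in HKO. It was lower in HKO in each part, by ratios of 0.59, 0.60 and 0.68. Igfbp1 had a pericentral to periportal ratio of 1.74 in WT and 3.62 in HKO, and at the pericentral end its HKO to WT ratio was 0.96 (0.88 to 1.03), against 0.46 at the periportal end.

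**Figure D4:**
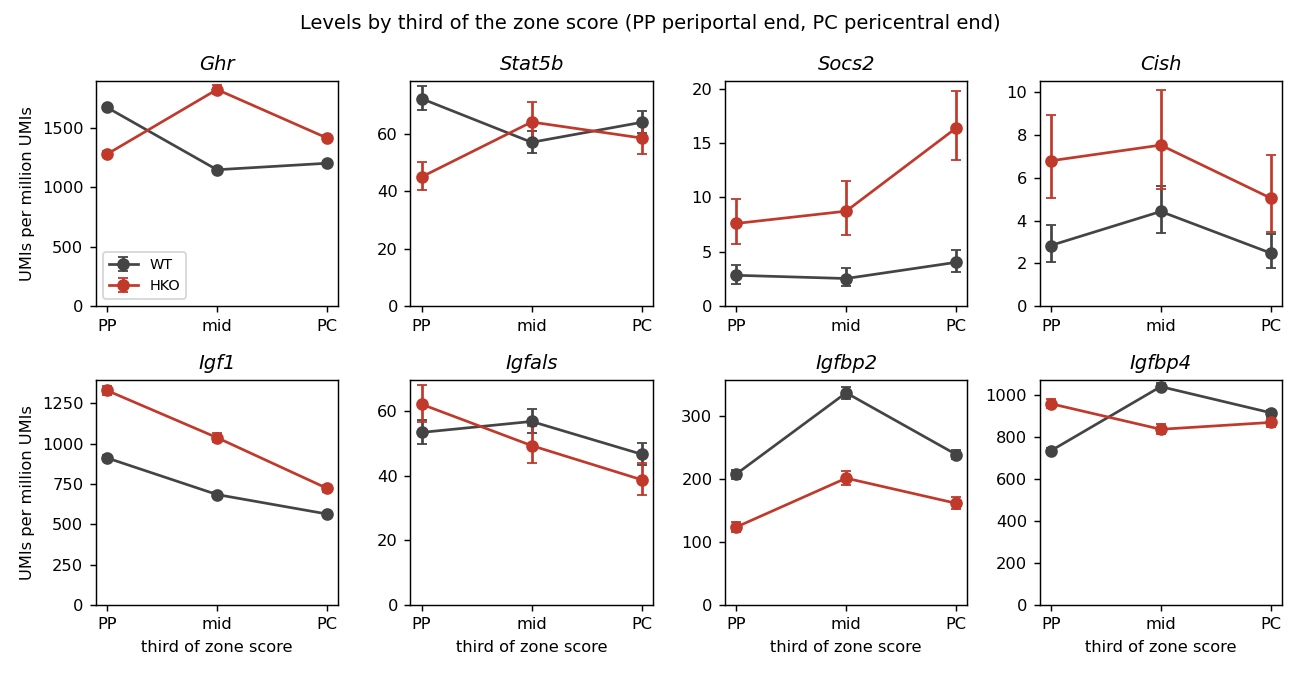
CPM of each gene (y axes from 0, exact 95% Poisson intervals) in 3 equal parts of hepatocyte-like barcodes ranked by zone score within each library, from the periportal end (PP) to the pericentral end (PC), WT in gray and HKO in red. Igf1 fell toward the pericentral end in both libraries, Socs2 was highest there at 16.4 in HKO, and Ghr peaked in different parts in WT and HKO.

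To see which genes varied most like each member, the zone score was cut into 10 bins per library and log2 levels were centered in each library, which gave 20 points that share barcodes and score. Over 2611 genes, Igf1 was most like Alb, Fgg and Fgb (Pearson's r of 0.97, 0.97 and 0.97), which encode albumin and fibrinogen chains, and Igfals was most like Plg, Clu and Cpn2 (0.92, 0.91 and 0.90). These are all genes of secreted plasma proteins. Ghr was most like Rabgap1l, Thrb and Cpq (0.98, 0.97 and 0.97), and Stat5b like Chd9, Atrn and Lcor (0.96, 0.95 and 0.95). Igfbp2 was most like C4b, Gm42418 and Cmss1 (0.91, 0.87 and 0.85). Gm42418 and Cmss1 were also among the leading genes of some clusters not named for another cell type. Barcodes of these clusters were split by depth alone into free RNA and hepatocyte-like ones. Igfbp4 was most like Apoa2, Fkbp4 and H2-Q10 (0.93, 0.93 and 0.92). Between members, Ghr and Stat5b had r of 0.83 and Igf1 and Igfals 0.70, while Ghr and Igfbp4 had -0.74.

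Within single barcodes the feedback genes were found together about as often as independent detection would give. At 5000 UMIs per barcode, 1 WT and 2 HKO barcodes had both Socs2 and Cish, where independent detection would give 0.41 and 2.13. Ghr and Socs2 were both found in 33 WT and 70 HKO barcodes, where independence would give 34.4 and 70.7. The highest correlation between members over thinned barcodes was that of Ghr and Stat5b, with r of 0.30 in WT and 0.35 in HKO. All pairs that included Socs2 or Cish lay between -0.04 and 0.05, and counts this sparse show little.

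Outside hepatocytes, 11 classes of barcodes with at least 10 in each library were set against the free RNA of their own library, scaled to the hepatocyte markers in the class. A gene with at least 10 UMIs in both libraries was called when it was at least 2-fold above the scaled free RNA in both. Of 88 pairs of member and class 59 had enough UMIs and 14 were called, 6 of the 8 genes at least once. Igfals and Igfbp2 were called in 0 classes, of the 2 and 10 in which they had enough UMIs. The share of members called was below that of all genes in all 11 classes. With 4 to 8 members tested per class these shares are coarse, and genes abundant in free RNA need more UMIs to be called. No conclusion on the axis is drawn from them.

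The members called and tested, with the share of all tested genes called, were as follows. In T and NK barcodes (167 WT and 638 HKO) 3 of 8 were called, against 66%, and in endothelial barcodes (187 and 320) 2 of 7, against 32.9%. No member was called among 5 tested in B and plasma (52.5%), 4 in erythroid (2.07%), 5 in macrophage (16.1%) or 5 in mixed endothelial and stellate barcodes (14.3%). Barcodes with markers of several classes were called mixed. In the mixed cholangiocyte and endothelial class (12 and 27 barcodes) 1 of 4 was called (70.6%), in mixed endothelial and macrophage (32 and 145) 3 of 6 (91.4%), and in mixed endothelial, macrophage and stellate (22 and 83) 3 of 5 (92.2%). In mixed macrophage with monocyte and dendritic barcodes 1 of 5 was called (83.8%) and in mixed monocyte and dendritic with T and NK barcodes 1 of 5 (75.1%). In classes with little free RNA most genes passed, so a call there does not mark a gene as typical of the class.

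Igf1 had a second source in barcodes led by Mmp12, Cd5l, C1qa, Clec4f and Vsig4, genes of liver macrophages, in the mixed endothelial and macrophage class. There it was at 786 CPM (442 UMIs) in WT and 599 (875 UMIs) in HKO, 5.44 and 7.32 times the scaled free RNA. It was found in 31 of 32 WT and 138 of 145 HKO barcodes, with at most 62 UMIs in a WT barcode and 25 in an HKO barcode. In the same barcodes Ghr was at 0.91 and 1.11 times the scaled free RNA, that is, at the free RNA level. The HKO to WT ratio of Igf1 was 0.76 (0.68 to 0.86), the reverse of that in hepatocyte-like barcodes, while free RNA made up 17.4% of UMIs in WT and 8.29% in HKO of this class. In the barcodes called macrophage alone, of which free RNA made up 79.5% and 66.2%, Igf1 was at 1.08 and 1.37 times the scaled free RNA.

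Socs2 was highest in the mixed cholangiocyte and endothelial class, whose leading genes included the bile duct genes Epcam and Spp1. It was at 67.9 CPM in WT (16 UMIs) and 153 in HKO (39 UMIs), found in 9 of 12 and 15 of 27 barcodes. These levels were 45.1 and 165 times the scaled free RNA. The ratio of 2.26 (1.23 to 4.33) rests on few barcodes, of which the highest held 4 UMIs in WT and 11 in HKO. Free RNA made up 51.3% of UMIs in WT and 18.1% in HKO of this class, and its part in the ratio was not tested. Socs2 was also called in the mixed endothelial and macrophage class (23.1 and 24 CPM), in endothelial barcodes (12.6 and 12.3) and in T and NK barcodes (16.3 and 22.3). In these 3 classes the HKO to WT ratios were 1.04 (0.54 to 2.14), 0.98 (0.51 to 1.83) and 1.37 (0.74 to 2.65), with intervals that included both 1 and a rise of 1.5-fold.

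T and NK barcodes were the only class with enough Cish UMIs to be tested, and Cish was called there, at 24.4 CPM (24 UMIs) in WT and 35.7 (56 UMIs) in HKO, 12.6 and 14.9 times the scaled free RNA. Its level in T and NK barcodes was above that in hepatocyte-like barcodes in both libraries, with no overlap of the intervals. Stat5b was called in 6 classes, among them T and NK barcodes, where it was at 168 and 157 CPM against 64.4 and 52.5 in hepatocyte-like ones, and the libraries differed by less than counting error (ratio 0.93, 0.76 to 1.14). Cytokines that act through STAT5 are known to induce CISH in lymphocytes. Within the T and NK class the genes were not evenly spread: Socs2 was at 75.5 and 70.3 CPM in a subcluster led by Atp8a2, Il12rb2 and Cd40lg (13 WT and 103 HKO barcodes), from 7 and 22 UMIs, while none of the other 5 subclusters held more than 5 UMIs in a library.

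Ghr and Igfbp4 were called in 1 class, mixed endothelial, macrophage and stellate, led by the stellate cell genes Reln, Dcn and Ecm1. Ghr was at 395 CPM in WT and 228 in HKO, 2.79 and 2.94 times the scaled free RNA, and Igfbp4 at 567 and 419, 2.37 and 5.17 times. The Ghr call was lost when the profile of hepatocyte-like barcodes replaced that of free RNA, where the lower of the 2 libraries' folds was 1.66. In the barcodes of this mixed class the genes for the other end of the axis were also high. Igf1r was at 243 and 262 CPM, Igfbp3 at 567 and 338, and Igfbp7 at 896 and 991, all low in hepatocyte-like barcodes. Endothelial barcodes had Igf1r at 68.1 and 130 CPM and Igfbp7 at 299 and 430. With Igf1r, Igfbp3 and Igfbp7 the RNA was thus found mainly in nonparenchymal barcodes.

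**Figure D5:**
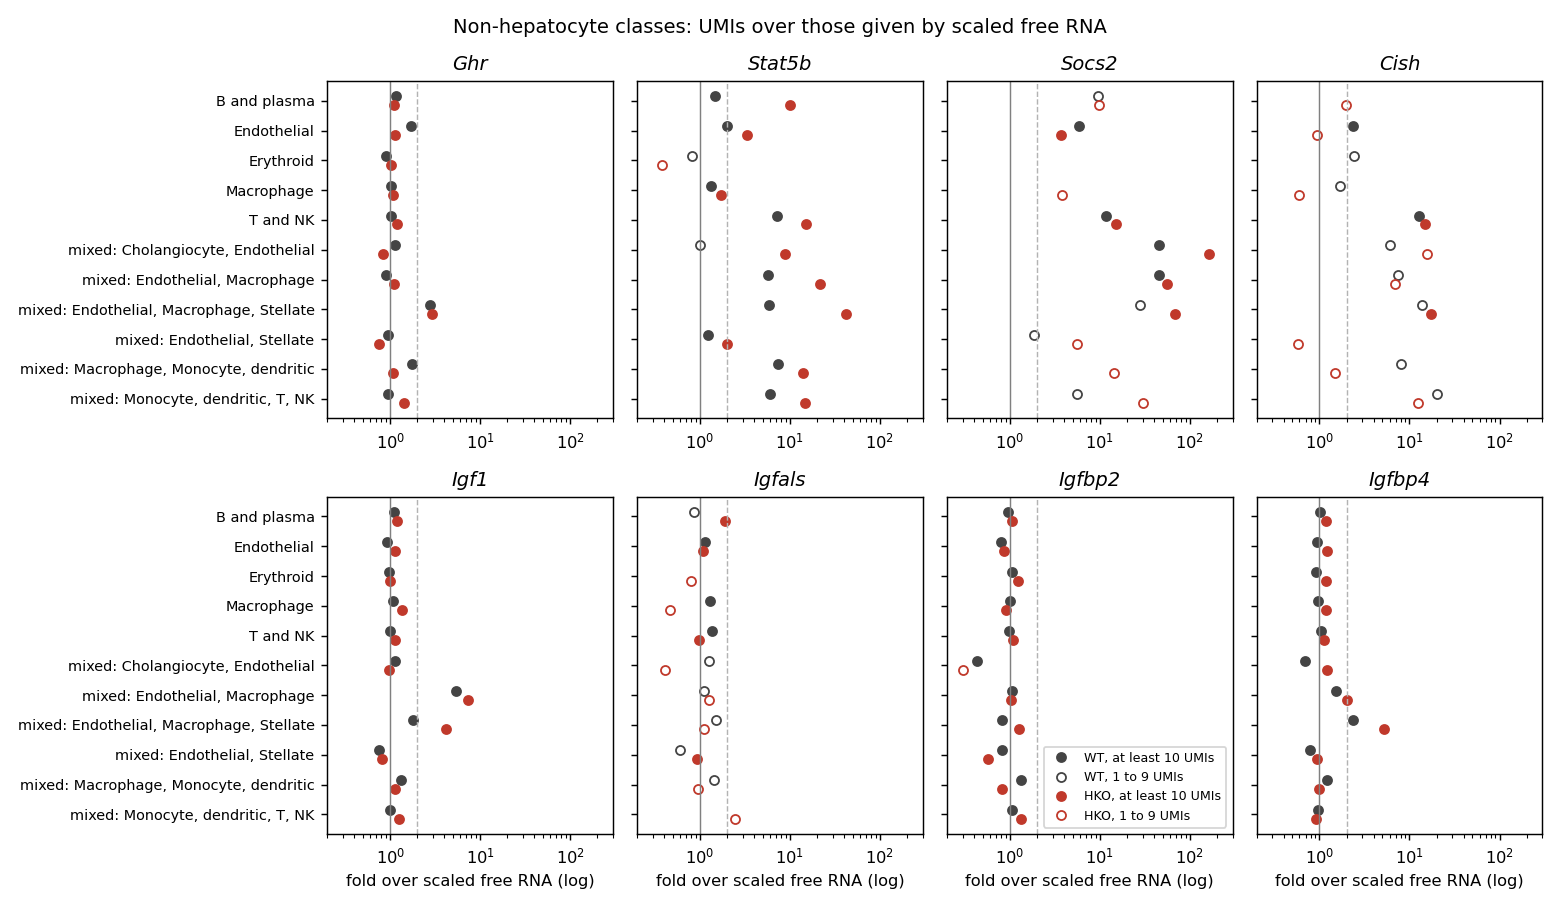
Fold over the free RNA scaled to hepatocyte markers (log axis) of each gene in 11 non-hepatocyte classes, WT in gray and HKO in red, filled where the class held at least 10 UMIs of the gene and open where it held 1 to 9, with a solid line at 1 and a dashed line at 2. Igfals and Igfbp2 had no class with filled points past 2 in both libraries, whereas Stat5b and Socs2 reached 42.2 and 165 in HKO.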

How the data were processed

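The authors deposited raw UMI counts per gene and barcode for both libraries, with Cell Ranger 7.1.0 in the matrix headers. The submitters' processing notes name Cell Ranger, R 3.0, Seurat 3 and the mm10 build. The barcodes were read in Python 3.11.15 with scanpy 1.11.5, and those with at least 500 UMIs, 300 genes and at most 50% mitochondrial UMIs were kept. Because the automatic threshold of Scrublet marked 0 barcodes, the highest scores were left out at a rate of 0.8% per 1000 barcodes (7019 in WT and 2664 in HKO). Leiden clusters (resolution 1, leidenalg 0.10.2, on 2000 variable genes, 30 components and 15 neighbors) were named from marker lists when at least 3 markers were at least 2-fold enriched and found in at least 10% of barcodes, and clusters with markers of several classes are called mixed.

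UMIs were summed per library and class and divided by the total. Poisson, conditional ratio and Clopper-Pearson intervals were computed with scipy 1.17.1, and the code was tested on simulated counts. Free RNA in a class was scaled so that its 10 hepatocyte markers matched. With 1 library per genotype there was no test. The 8 genes and all lists were chosen with earlier results of these data known. All 8 genes are named, as are pathway genes with a mean of at least 10 CPM and a ratio of at least 1.5 in either direction, 10 genes close to the axis, and the 3 genes most like each member with at least 1000 UMIs in each library. A few further genes of the lists were chosen after their values were seen, namely Prlr, Igf2bp2, Cyp2d9, Cyp7b1 and Cyp2b9. Gene coordinates and 3′ UTRs are from GENCODE M21 (GRCm38), and microRNA and promoter sequences from RefSeq (GRCm38.p6). Alternatives changed the depth limits, doublets, clustering, scaling, fold limits and free RNA profile, and 2 more, nuclear RNA and class size, were chosen after seeing the data.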

Additional observations from a re-analysis of the deposited data

Results flagged for a closer look

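Along the zone score, 3 genes went in opposite directions in the 2 libraries, with intervals that did not include 1. The pericentral to periportal ratio of Ghr was 0.72 in WT and 1.11 in HKO, that of Stat5b 0.89 and 1.30, and that of Igfbp4 1.25 and 0.91. The parts of the zone score differed in Malat1 and Neat1 RNA, at 8716, 5944 and 5312 CPM from the periportal to the pericentral end in WT and 4923, 9930 and 5677 in HKO, and the part of this in the result was not tested. The opposition was not kept under every alternative: in HKO, Ghr was at 0.87 with the score as a share of UMIs, 0.91 with all hepatocyte-like barcodes and 0.99 when thinned, Stat5b was at 0.99 and Igfbp4 at 1.02 with the score as a share of UMIs, and in WT Stat5b was at 1.07 when the score was cut into narrower ends.

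Of the 14 pairs of member and class called above free RNA, 4 had an HKO to WT ratio on the other side of 1 from that in hepatocyte-like barcodes, with neither interval including 1. Of the 45 pairs tested but not called, whose RNA was not set apart from free RNA, 15 did as well. For Igf1 the ratio was 0.76 in the mixed endothelial and macrophage class and 1.41 in hepatocyte-like barcodes. In the mixed endothelial, macrophage and stellate class the ratio was 0.58 for Ghr (1.04 in hepatocyte-like barcodes), 1.96 for Stat5b (0.81) and 0.74 for Igfbp4 (1.02). The share of free RNA in these classes was 17.4% and 18.2% in WT and 8.29% and 6.68% in HKO, and its part was not tested. With 1 library per genotype, none of these differences between libraries or classes was tested.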

How the results depend on the processing

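No paired analysis was possible because each genotype had 1 library and no test was made. Over 16 alternatives, Socs2 stayed between 2.37 and 4.63 (HKO over WT) and Cish between 1.36 and 3.08. Igf1 lay between 1.27 and 1.59, and Igfbp2 between 0.56 and 0.72. Igfbp2 was past the fold limit of the setting in 11 of the 16, and its ratio of 0.65 was short of the 2-fold limit. Ghr lay between 0.88 and 1.32 and was above 1 in 14, Stat5b was above 1 in 1, Igfals in 4 and Igfbp4 in 12. These counts include the 2-fold limit and the minimum of 1 CPM, which leave each gene's ratio unchanged and so do not test it. The number of members past 1.5-fold was 0 with no depth minimum, with barcodes weighted equally and when thinned to 1000 UMIs. It was 3 with a minimum of 1 CPM and 2 in the middle part by nuclear RNA (Igf1 and Igfbp2), while the 1 member in the highest part was Igf1 and not Igfbp2. With the limit set at 2-fold, the number of members past that limit was 0. Genes higher in HKO numbered 403 at 5000 to 20000 UMIs, 355 with equal weights, 523 thinned, 587 with the lower minimum, 25 at 2-fold, and 302 and 297 in the lowest and highest of the 3 parts by nuclear RNA, against 166. Genes lower numbered 672 thinned, 661 with the lower minimum, 67 at 2-fold and 494 in the middle part, against 303. Along the zone score the number of members past the limit in both libraries was 0 when thinned to 5000 UMIs and at 2-fold. In WT alone it was 2 with the score as a share of UMIs, 0 thinned and 0 at 2-fold, and in HKO alone 1 with all hepatocyte-like barcodes and 0 at 2-fold. With the score as a share of UMIs, the 2 members in HKO were Igf1 and Igfbp2 (1.54) in place of Igf1 and Igfals. Ghr in HKO turned to 0.87 with the score as a share of UMIs. Of the 14 class calls, 9 were left when classes needed 30 barcodes per library. With the profile of hepatocyte-like barcodes in place of free RNA, some calls fell below 2-fold in at least 1 library. These included Ghr in the mixed endothelial, macrophage and stellate class (lower fold 1.66), and Socs2 (1.75) and Stat5b (1.59) in endothelial barcodes. Stat5b in endothelial barcodes was called in only 2 of 5 alternatives. The 2-fold and class-size changes follow from stricter limits, and the cause of the others was not tested. Socs2 and Cish rest on 149 to 255 UMIs per library.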
